A study of Mus musculus with 4 samples.

Results

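Chromatin accessibility at 10 genes of fat cell formation and fat storage was examined in mouse periosteal stem/progenitor cells (PSPCs) of Plagl1ko and Control mice. The genes are the transcription factor genes Pparg, Ebf1 and Ebf2, the hormone gene Adipoq, the lipid uptake genes Lpl, Cd36 and Fabp4, the lipid synthesis gene Lpin1, and the lipid droplet coat genes Plin1 and Plin2. Peaks were taken if the authors' annotation assigned them to one of these genes, or if they lay within 50 kb of a start site of one of them. This gave 75 of the 85925 consensus peaks, of which 66 lay within 50 kb and 21 carried the gene's name in the annotation (12 of them within 50 kb). Only 7 of the 10 genes had any such peak. Fabp4, Plin1 and Plin2 had 0 annotated peaks each, so their start sites could not be solved and no window could be drawn around them.

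The study used ATAC-seq, which reads open chromatin from the places where a transposase can cut DNA and tag it for sequencing. There were 2 Plagl1ko libraries, from mice that carry Ctsk-iCre and floxed Plagl1 on both alleles (Ctsk-iCre;Plagl1fl/fl), and 2 Control libraries, from mice with floxed Plagl1 alone (Plagl1fl/fl). Plagl1 encodes an imprinted zinc finger transcription factor, and Ctsk-iCre is driven by the cathepsin K gene, which osteoclasts and periosteal cells use. For all 4 libraries, the mandibular angle of 8-week-old mice was the source, and its cells were cultured and then kept for 3 days in 50 µg/ml ascorbic acid, 5 mM β-glycerophosphate and 1e-07 M dexamethasone. Cre was present only in the Plagl1ko cells, so an effect of Cre and one of the deletion cannot be told apart, and the annotation assigned 0 peaks to Plagl1, so the deletion itself was not checked. The tables give 1 log2 fold, 1 mean signal, 1 F statistic and 1 p per peak. Values per library and their depth are therefore not analysed here. Whether the 2 libraries of a genotype are from different mice is not in the labels. A positive log2 fold is read here as higher in Plagl1ko cells. That is an assumption, since the tables label peaks gain or loss and do not say in which genotype. Every sign given here would turn if the ratio ran the other way.

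PPARγ, the product of Pparg, is the nuclear receptor at the top of the fat cell programme. It acts with C/EBP factors and with the early B-cell factors EBF1 and EBF2, and switches on genes for fatty acid uptake, triglyceride synthesis and the proteins that coat lipid droplets. Skeletal progenitors can take a bone or a fat fate, and dexamethasone is a usual part of both induction media. Lpl, Cd36, Pparg and Plin2 are also used by macrophages.

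RefSeq promoter sequences (GRCm38.p6, 250 bases before a start site) were found for 7 of the 10 genes, as 10 promoters. Those of Adipoq and of the most downstream Pparg start site are shown because Adipoq had the only annotated peak among the 10 genes that the authors classed as a promoter, and because the Pparg promoter holds both kinds of site searched for and marked. Peaks left out of the annotation, among them those at the Pparg, Lpl and Lpin1 start sites, were not classed. Capitals mark CCAAT and the C/EBP motif TTGCNNAA on either strand.
Adipoq, chr16:23146286-23146535, plus strand: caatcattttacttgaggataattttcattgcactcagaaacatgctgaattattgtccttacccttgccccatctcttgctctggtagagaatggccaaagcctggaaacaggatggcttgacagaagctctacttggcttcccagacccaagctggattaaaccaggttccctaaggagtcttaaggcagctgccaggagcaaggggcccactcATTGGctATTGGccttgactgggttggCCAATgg
Pparg, promoter 3, chr6:115421816-115422065, plus strand: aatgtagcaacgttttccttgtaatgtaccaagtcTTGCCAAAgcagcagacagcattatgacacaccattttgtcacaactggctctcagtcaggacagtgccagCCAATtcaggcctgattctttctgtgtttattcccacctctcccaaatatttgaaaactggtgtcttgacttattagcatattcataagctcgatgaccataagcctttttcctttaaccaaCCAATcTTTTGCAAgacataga
In Adipoq the sequence CCAAT or its complement stood 3 times, at -34 to -30, -27 to -23 and -7 to -3 from the start site, and TTGCNNAA did not occur. In promoter 3 of Pparg, TTGCNNAA stood at -215 to -208 and at -16 to -9, and CCAAT at -144 to -140 and -22 to -18, so that the downstream pair stood 1 base apart. TTGCNNAA occurred in 2 of the 10 promoters (that one and Plin1, where it stood at -187 to -180 and -58 to -51) and in 9.56% of the 32851 promoters of the table. CCAAT occurred in 5 of 10 promoters and in 33.8% of all. The single nuclear receptor site AGGTCA occurred in 5 of 10 (Plin2, Cd36, Lpin1 and promoters 1 and 2 of Pparg) and in 14.0% of all, and no match overlapped a marked one. The KLF site GGGNGTGG was found in 2 of 10, Plin2 and promoter 2 of Ebf1, and in 15.9% of all. None of the 10 held the EBF palindrome TCCCNNGGGA (0.779% of all), the PPAR and RXR direct repeat AGGTCANAGGTCA (0.0335%), the GC palindrome GGGGCCCC, a known PLAGL1 site (0.889%), or the AP-1 site TGANTCA (6.75%). AGGTCANAGGTCA contains AGGTCA, and both strands were searched for every motif. These matches describe letters in a window, not binding. GC content was 48.8% for Adipoq, and 82.4% for promoter 1 of Pparg against 40.8% for its promoter 3.

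The first question was whether accessibility around these genes differed between Plagl1ko and Control cells. A single member peak passed, a weak one deep inside Ebf1, which was lost in Plagl1ko cells. At an FDR under 0.05 in the authors' deposited table, 0 of 75 member peaks were gained and 1 was lost, against 3.14% of all consensus peaks gained and 2.48% lost (5.62% in either direction). Within 50 kb of the start sites, 0 of 66 peaks passed in the authors' deposited table. At an unadjusted p under 0.05, 15 of those 66 (22.7%) stood out in the authors' deposited table, against 19.8% of all peaks, with 4 positive (10.4% of all peaks were positive at that p) and 11 negative (9.47% of all). That share is near the background, and windows exist only around genes with at least 1 annotated peak, and a peak was annotated only if its unadjusted p was under 0.05 and its log2 fold reached 0.2 in size.

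Over the 66 peaks the median log2 fold was -0.04 by the authors' deposited table, against 0.002 over all peaks, with 30 positive and 36 negative and a range of -0.78 to 0.82. Around Pparg, Ebf1 and Ebf2, 22 of 31 peaks (71.0%) were negative in the authors' deposited table, the median log2 fold being -0.14. Around Adipoq, Lpl, Cd36 and Lpin1, 14 of 35 (40%) were negative in the authors' deposited table, with a median of 0.03. Over all consensus peaks 49.6% were negative. These shares are descriptions with no test, since peaks of 1 gene are not replicates. Signal moved with sign over the whole table: 57.9% of peaks above the median signal of 5.51 CPM (reads in the peak scaled to library size) were negative, and 41.3% of the others. The 29 member peaks above that signal in the windows had 19 negative (65.5%), and the 37 at or under it had 17 (45.9%). Subtracting the running median of the fold along signal left 21 of 31 and 17 of 35 negative.

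**Figure D1:**
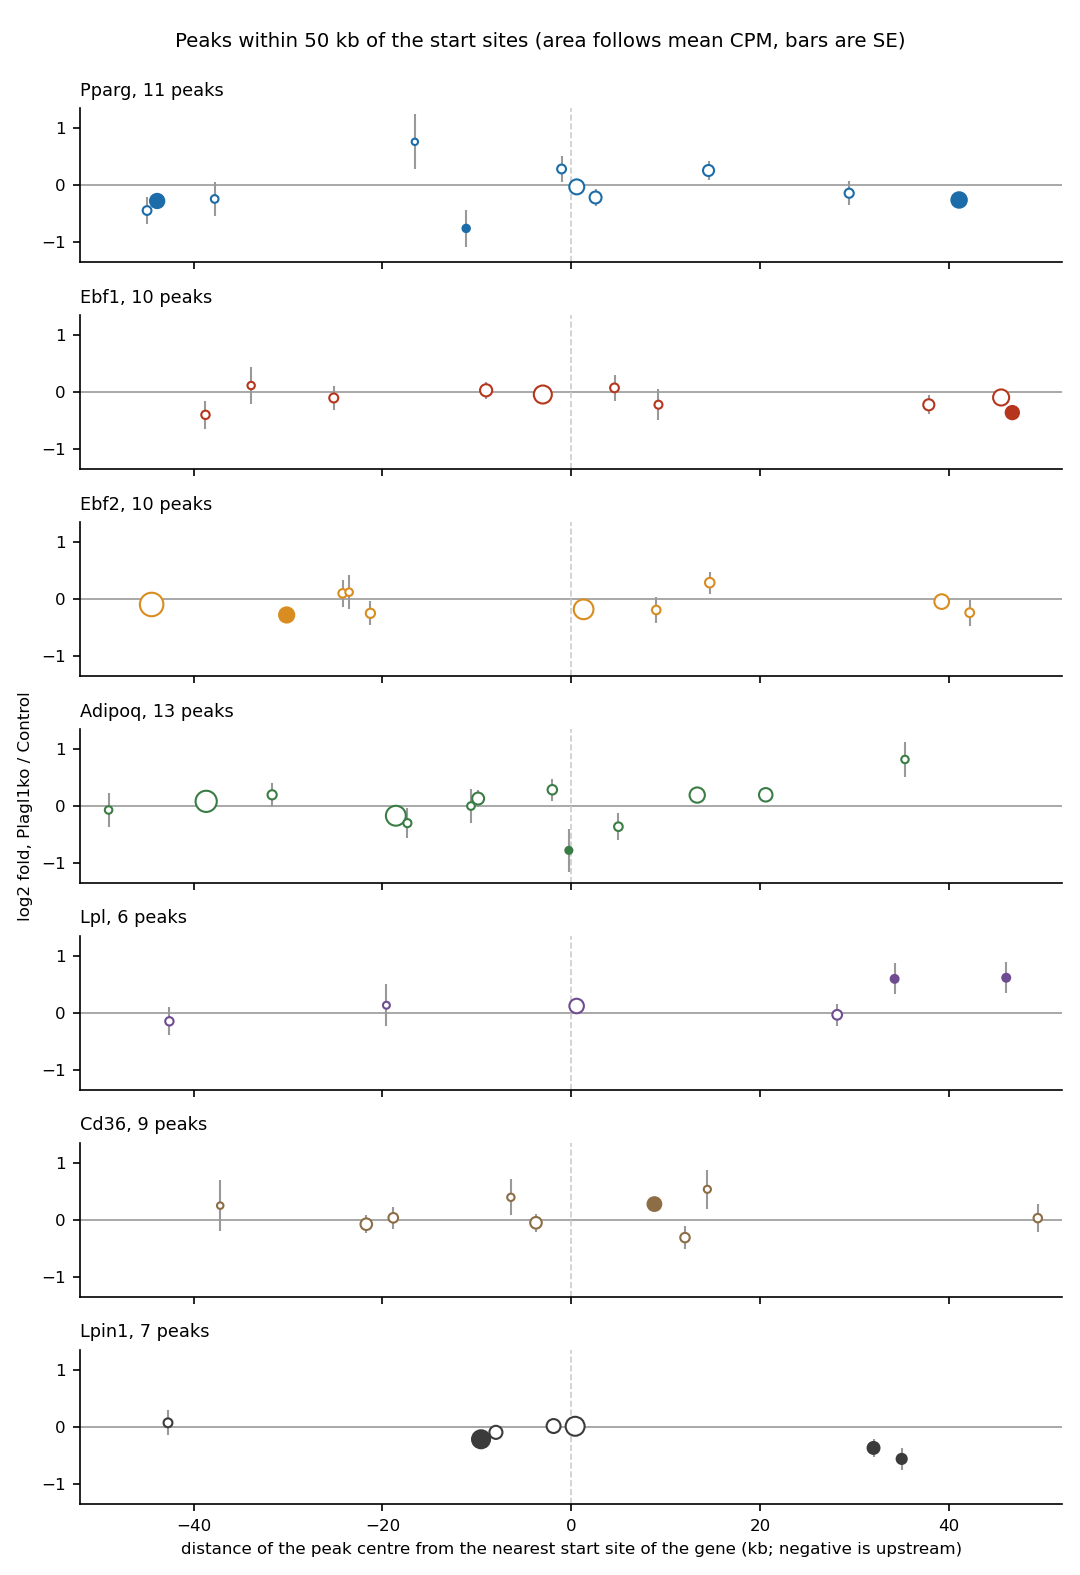
Log2 fold (Plagl1ko over Control, vertical axis) of each peak within 50 kb against its distance from the nearest start site of the gene in kb (horizontal axis, negative is upstream), 1 panel per gene. Points are peaks with an area that follows mean CPM, bars are the standard error implied by the F statistic, and filled points are peaks the annotation assigned to that gene. The filled points of Pparg, Ebf1, Ebf2, Adipoq and Lpin1 all lie under 0, while both of Lpl and the one of Cd36 lie above it.

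**Figure D2:**
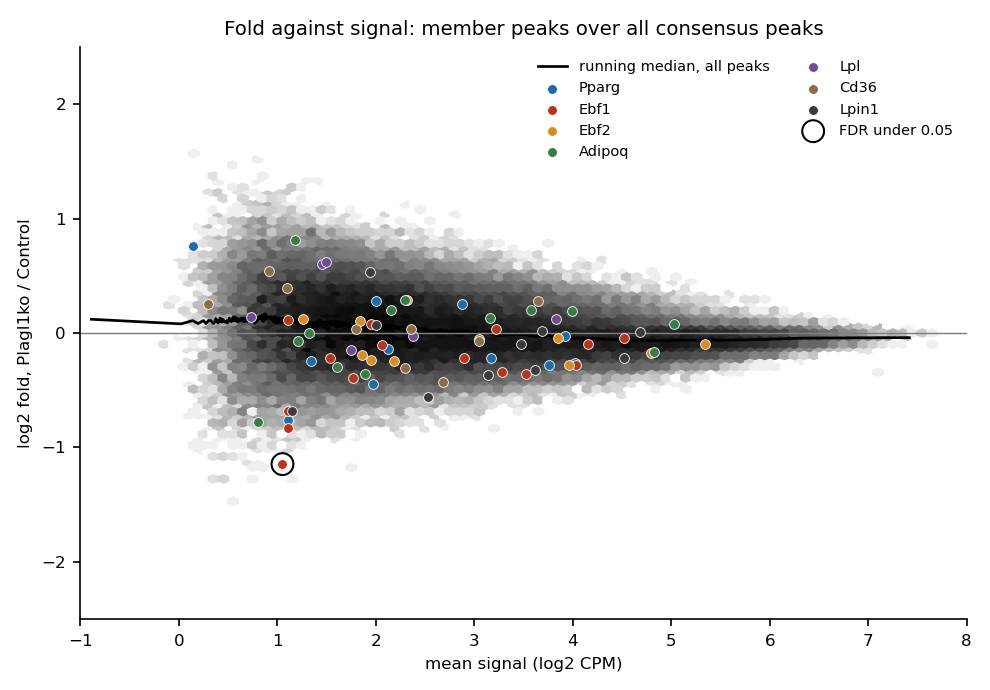
Log2 fold (Plagl1ko over Control) against mean signal in log2 CPM for all consensus peaks with a log2 CPM up to 8 (grey, darker where more peaks fall) and for the 75 member peaks, coloured by gene, with the running median of all peaks as a black line. The ring marks the 1 member peak with an FDR under 0.05, in Ebf1, at the weak end of the signal range.

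Pparg had 11 peaks around 2 solved start sites on chromosome 6 (mm39, plus strand), 115337912 and 115399027, which lie 61.1 kb apart. Of these, 8 were negative in the authors' deposited table, the median log2 fold being -0.21. The peak at the upstream start site, 115337758 to 115339236, was the second strongest at 15.2 CPM, with a log2 fold of -0.03 (SE 0.112, 95% interval -0.25 to 0.19, FDR 0.920, from the authors' deposited table). The downstream start site, from which the fat cell isoform PPARγ2 is made, had no peak centred within 1 kb. The nearest, 115397777 to 115398230, was centred at -1024 bp, and its end lay within 1 kb. Its log2 fold was 0.28 (SE 0.220, FDR 0.499, from the authors' deposited table). The next was centred at 2579 bp with -0.21 (SE 0.148, FDR 0.433, 8.98 CPM, from the authors' deposited table).

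The 3 peaks annotated to Pparg were all negative and none passed. The strongest peak of the gene, also that with its smallest p, covered exon 6 of 8 at 115439789 to 115440457 (41096 bp from the downstream start site, 16.3 CPM). Its log2 fold was -0.26 (SE 0.110, p 0.0185, FDR 0.146, from the authors' deposited table). An intergenic peak at -43875 bp had 13.5 CPM and a log2 fold of -0.28 (SE 0.120, FDR 0.161, from the authors' deposited table). The weak peak at -11133 bp, with 2.16 CPM, stood at a log2 fold of -0.76 (SE 0.331, FDR 0.163, from the authors' deposited table). The largest positive value, 0.76 at -16571 bp in the authors' deposited table, came with an SE of 0.482 at 1.10 CPM and lay within 2 SE of 0. Both extremes of Pparg were thus peaks of low signal.

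Ebf1, which acts in B cells, bone marrow stroma and fat precursors, had 15 peaks and the only call. The peak at chromosome 11, 44704226 to 44704403 (mm39), in intron 6 of 15 and 193259 bp from the start site at 44511055, fell to 0.452-fold in Plagl1ko cells. Its log2 fold was -1.15 (SE 0.350, 95% interval -1.83 to -0.46, p 0.00111, FDR 0.0288, from the authors' deposited table). It was 179 bp wide with 2.07 CPM, among the weaker member peaks. Adding an assumed coefficient of variation between libraries of 0.05 to the SE put its adjusted p at 0.0662, and 0.1 put it at 0.281.

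All 6 peaks annotated to Ebf1 were negative, and all 6 lay in intron 6. The one within 50 kb, at 44557577 (46736 bp, 11.5 CPM), stood at a log2 fold of -0.36 (SE 0.131, FDR 0.0811, from the authors' deposited table). The other 4 lay 215078 to 247388 bp from the start site, with log2 folds of -0.34, -0.28, -0.68 and -0.83 and FDRs of 0.144, 0.109, 0.217 and 0.119 in the authors' deposited table. A further 3 annotated peaks lay inside Ebf1 but were assigned to Gm12159, in introns 10, 10 and 15. Their log2 folds were -0.35, -0.30 and -0.28, with FDRs of 0.114, 0.124 and 0.128 in the authors' deposited table. All 9 annotated peaks inside the gene were thus negative. Annotation required a p under 0.05, so no test is made of that count.

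Along the gene body of 384.2 kb, from the start site to the last annotated peak within it, there were 38 consensus peaks whether annotated or not. Of these, 27 (71.1%) were negative in the authors' deposited table, the median log2 fold being -0.12, 1 lost and 0 gained. The 9 with an unadjusted p under 0.05 (23.7%, against 19.8% of all peaks) were the same 9. Above the median signal, 14 of 17 were negative in the authors' deposited table, against 57.9% of all such peaks. Subtracting the running median left 27 of 38 negative. No peak lay within 1 kb of the solved start site. The strongest within 5 kb, at -3011 bp (44507508 to 44508580, 22.9 CPM), stood at a log2 fold of -0.04 (SE 0.0915, FDR 0.853, from the authors' deposited table). The RefSeq promoters of Ebf1 number 2, and only 1 start site was solved. Whether this peak lies at the other one was not checked, because the builds differ.

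**Figure D3:**
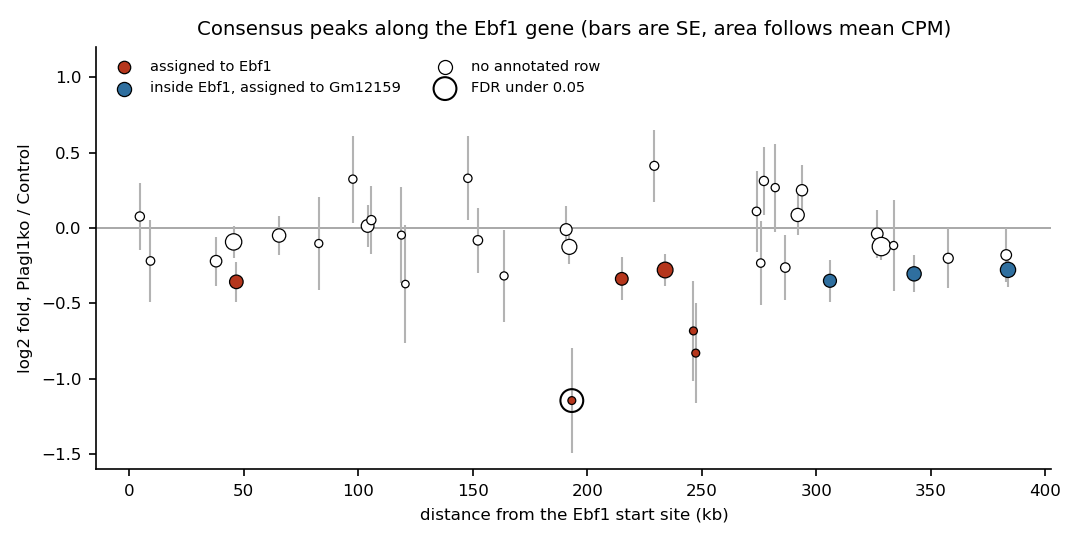
Log2 fold (Plagl1ko over Control, vertical axis) of the 38 consensus peaks along the Ebf1 gene against distance from its start site in kb. Bars are the standard error, area follows mean CPM, colours give the gene the annotation assigned, and the ring marks the peak at 193259 bp with an FDR under 0.05. All 9 coloured points lie under 0, and 11 of the uncoloured points lie above it.

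Ebf2, a factor of brown fat and of skeletal precursors, had 10 peaks around its start site (chromosome 14, 67470741, plus strand), 7 of them negative in the authors' deposited table. It held the strongest of the 75 peaks, which lay at -44461 bp with 40.5 CPM and a log2 fold of -0.09 (SE 0.0694, FDR 0.476, from the authors' deposited table). No peak lay within 1 kb of the start site, and the nearest, at 1310 bp inside the gene (67471750 to 67472353, 27.8 CPM), had -0.18 (SE 0.0836, 95% interval -0.34 to -0.01, p 0.0329, FDR 0.201, from the authors' deposited table). The 1 annotated peak, at -30154 bp, had the gene's smallest p and a log2 fold of -0.28 (SE 0.112, p 0.0136, FDR 0.124, from the authors' deposited table). None passed. A peak inside intron 6 of 15, assigned to Gm6878 and 57990 bp from the start site, had the opposite sign, 0.46 (SE 0.215, FDR 0.196, from the authors' deposited table).

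Adipoq encodes adiponectin, a hormone made by mature fat cells, and it had 13 peaks on chromosome 16 around the start site at 22965286. Its promoter peak, 22964889 to 22965176, covered bases 397 to 110 upstream of the start site and had 1.75 CPM. The median over all peaks was 5.51 CPM, and the peak at the downstream Lpin1 start site had 25.6 CPM. The log2 fold of the Adipoq promoter peak was -0.78 (SE 0.377, 95% interval -1.52 to -0.04, p 0.0402, FDR 0.224, from the authors' deposited table), which did not pass. If the RefSeq start site of the printed sequence is the same base as the solved one, which was not checked because the builds differ, the peak takes in its upstream stretch and none of the 3 marked sites. The next peak, at -2004 bp with 4.90 CPM, had the opposite sign, 0.29 (SE 0.197, FDR 0.434, from the authors' deposited table).

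Over the whole window, 8 of the 13 Adipoq peaks were positive, the median log2 fold being 0.08 over the 13 in the authors' deposited table. The strongest, at -38680 bp with 32.5 CPM, had 0.08 (SE 0.0767, FDR 0.586, from the authors' deposited table). The second strongest, at -18584 bp with 28.4 CPM, had -0.17 (SE 0.0828, p 0.0418, FDR 0.228, from the authors' deposited table). The smallest p belonged to a weak peak at 35363 bp (23000345 to 23000954, 2.27 CPM), in intron 1 of 2 of the neighbour C730014E05Rik. Its log2 fold was 0.82 (1.76-fold, SE 0.305, p 0.00762, FDR 0.0897, from the authors' deposited table), the largest positive value among the 75 peaks.

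Lpl encodes lipoprotein lipase, which frees fatty acids from circulating lipoproteins. Its start site peak (chromosome 8, 69333079 to 69334479, 14.2 CPM) was the strongest of its 6 peaks and had a log2 fold of 0.12 (SE 0.116, 95% interval -0.10 to 0.35, FDR 0.593, from the authors' deposited table). Both annotated peaks were positive, weak and downstream. At 34266 bp, on a LINE repeat, the log2 fold was 0.60 (SE 0.273, FDR 0.184, 2.74 CPM, from the authors' deposited table). At 46091 bp it was 0.62 (SE 0.269, p 0.0217, FDR 0.159, 2.81 CPM, from the authors' deposited table), the smallest p of the gene.

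Cd36, a fatty acid transporter of the cell surface, had 2 solved start sites on chromosome 5 (minus strand, 18040894 and 18093957, 53.1 kb apart) and 9 peaks in their windows. No peak lay within 1 kb of either start site. The nearest, at -3735 bp (18044330 to 18044929, 8.29 CPM), stood at a log2 fold of -0.05 (SE 0.153, FDR 0.901, from the authors' deposited table). The strongest peak lay in intron 1 of 15, 8811 bp from the upstream start site (12.5 CPM), with 0.28 (SE 0.123, p 0.0234, FDR 0.167, from the authors' deposited table). A peak assigned to Cd36 at 115659 bp lay inside Sema3c, in intron 15 of 17, and had the smallest p of the 10 Cd36 peaks with a log2 fold of -0.43 (SE 0.177, p 0.0156, FDR 0.133, from the authors' deposited table).

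Lpin1 encodes lipin 1, a phosphatidate phosphatase on the path to triglycerides that also acts as a coregulator of PPAR factors. It had 10 peaks, 7 of them within 50 kb of its 2 solved start sites (chromosome 12, minus strand, 16639771 and 16660967). The peak at the downstream start site, 16639771, covered 16638615 to 16640102 and was the strongest at 25.6 CPM. It showed almost no difference, with a log2 fold of 0.01 (SE 0.0864, 95% interval -0.16 to 0.18, FDR 0.958, from the authors' deposited table). The upstream start site, 16660967, had no peak within 5 kb. The nearest, at -7982 bp, had -0.09 (SE 0.132, FDR 0.749, from the authors' deposited table). Inside the gene, a peak in intron 13 of 20 at 35014 bp (16604536 to 16604979, 5.79 CPM) came nearest to the threshold without passing it. Its log2 fold was -0.56 (SE 0.188, p 0.00297, FDR 0.0516, from the authors' deposited table), and with the running median subtracted its adjusted p was 0.0459. Its neighbour at 32031 bp had -0.37 (SE 0.150, FDR 0.130, from the authors' deposited table). Both of these distances are from the downstream start site. A peak at -9559 bp from the upstream start site had -0.21 (SE 0.0922, FDR 0.152, from the authors' deposited table). The 3 intergenic peaks assigned to Lpin1 from 209213 to 328614 bp away had log2 folds of -0.32, 0.53 and -0.68 and FDRs of 0.108, 0.142 and 0.209 in the authors' deposited table.

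**Figure D4:**
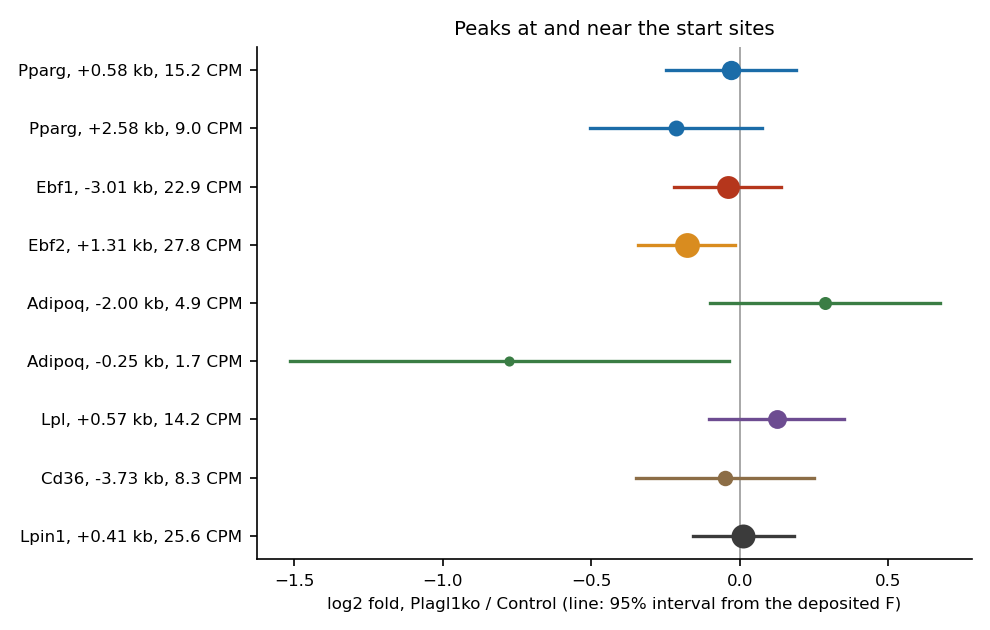
Log2 fold (Plagl1ko over Control, horizontal axis) with its 95% interval for the peaks centred within 1 kb of a solved start site and the strongest peak within 5 kb, 1 line per peak, labelled with the gene, the distance in kb and the mean CPM. Point area follows mean CPM. The strong start site peaks of Pparg, Lpl and Lpin1 have intervals that include 0, and those of the weak Adipoq promoter and of Ebf2 lie under it.

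Over the 7 genes, the 13 window peaks within 5 kb of a start site had a median signal of 8.98 CPM and, in the authors' deposited table, a median fold of -0.03 (log2). The 20 peaks between 5 and 20 kb had 4.94 CPM and 0.04, and the 33 between 20 and 50 kb had 4.36 CPM and -0.09 in the authors' deposited table. Of the 21 annotated peaks, 17 (81.0%) were negative in the authors' deposited table, against 43.3% of all 15221 annotated peaks, those labelled loss by the authors. The 10 of Pparg, Ebf1 and Ebf2 were all negative, as were 7 of the 11 of the lipid genes. Ebf1 gave 6 of the 17, and without it 11 of 15 were negative. Subtraction of the running median left 17 of 21 negative. At the edge of the window, the last peak inside lay 49.434 kb from a Cd36 start site with a log2 fold of 0.03, and the next one outside, 50.098 kb from Ebf2, had -0.16 in the authors' deposited table.

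Of Fabp4, which encodes the fatty acid carrier of fat cells, Plin1, which encodes the droplet coat protein of mature fat cells, and Plin2, whose product coats droplets in most cells, it can be said only that no peak assigned to them met both annotation limits, on p and on the size of the fold.

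Other genes of the pathway were read from a list of 61 regulators, insulin signalling genes and lipid enzymes. Of the 61, 37 had an annotated peak, and among these 9 (24.3%) had a gained and 9 (24.3%) a lost peak in the authors' deposited table, Rxra counted in both. Over all 8173 annotated genes the shares were 24.5% and 20.6%, so both shares of the list are near the background. Their 67 annotated peaks, 10 gained and 10 lost, had a median fold of -0.21 (log2) in the authors' deposited table, with 31 positive and 36 negative. Of the 10 gained peaks 8, and of the 10 lost peaks 5, also passed with the running median subtracted.

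Among regulators, gained peaks lay near Nr1h3, the gene of the oxysterol receptor LXRα, at -1803 bp with a log2 fold of 0.48 (SE 0.0940, FDR 0.000163, from the authors' deposited table). Rxra, whose product pairs with PPARγ, had a gained peak in intron 1 of 9 at 0.83 (SE 0.172, FDR 0.000388) and a lost one at -0.24 (FDR 0.0478, from the authors' deposited table). Other annotated Rxra peaks stood at 0.48, -0.37 and 0.36 and did not pass. Cebpa, the C/EBP factor of late fat cell differentiation, had a gained peak at -20356 bp at 0.67 (SE 0.187, FDR 0.0148, from the authors' deposited table). The gained peak assigned to Cebpd lay inside Spidr, 97318 bp away, at 0.34 (FDR 0.0240, from the authors' deposited table). Other annotated Cebpd peaks stood at -0.20 and -0.57 and did not pass. Nr3c1, the glucocorticoid receptor gene, had one at 0.61 (FDR 0.0293), and Foxo1, a factor under insulin control, one at 1.00 (FDR 0.0200, from the authors' deposited table). Other annotated peaks of Nr3c1 stood at -0.36, 0.32 and -0.68, and that of Foxo1 at -0.52, and none of these passed. Ebf3, the paralog of Ebf1 and Ebf2, had 3 annotated peaks, all negative. The one in its 5′ UTR, 356 bp from the start site with 29.6 CPM, was lost at -0.34 (SE 0.0818, FDR 0.00321, from the authors' deposited table). Klf5, an early factor of fat cell formation, had a lost peak at -0.91 (SE 0.303, FDR 0.0485), and Dlk1, which encodes an inhibitor of that process, had 2 at -0.35 (FDR 0.0276) and -0.46 (FDR 0.0342, from the authors' deposited table). With the running median subtracted, both Dlk1 peaks, at adjusted p of 0.0793 and 0.0517, and the lost Rxra peak, at 0.209, no longer passed.

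Among insulin signalling and lipid genes, Irs1 (insulin receptor substrate 1) had a lost peak in its 5′ UTR, 187 bp from the start site with 61.4 CPM, at -0.27 (SE 0.0572, FDR 0.000429, from the authors' deposited table). Its other annotated peak stood at 0.42 and did not pass. Insr, the insulin receptor gene, had 2 gained peaks in intron 2 of 20, at 0.78 (FDR 0.0251) and 0.42 (FDR 0.0488, from the authors' deposited table). Scd1, a fatty acid desaturase gene, had a lost peak at -38348 bp with a log2 fold of -0.82 (SE 0.182, FDR 0.00124), while its neighbour Scd2 had a gained one at 0.21 (FDR 0.0443, from the authors' deposited table). Acly, which encodes ATP citrate lyase, had a gained peak at 0.55 (FDR 0.0430), and Gpam, a glycerol phosphate acyltransferase gene, a lost one 341652 bp away at -0.49 (SE 0.132, from the authors' deposited table). The other annotated Acly peak stood at -0.21 and did not pass. Cavin1, a caveola coat gene, had a lost peak at -0.24 (FDR 0.0260, from the authors' deposited table). Plin4, a droplet coat gene of the same family as Plin1 and Plin2, had a lost promoter peak at -23 bp, at -0.39 (SE 0.122, FDR 0.0357, 13.3 CPM, from the authors' deposited table). With the running median subtracted, the adjusted p was 0.0577 for Plin4, 0.133 for Cavin1, 0.0567 for Acly and 0.0553 for the larger Insr change. Within 1 kb of a start site, the list had 10 annotated peaks, of which 3 (Irs1, Ebf3 and Plin4) were lost and 0 gained in the authors' deposited table. Of all 1615 annotated peaks within 1 kb, 24.7% were lost and 10.9% gained in the authors' deposited table, so nothing is read from the list's split. Beyond 1 kb the list had 57, with 10 gained and 7 lost, against 18.4% gained and 11.7% lost of all 13605 such peaks.

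**Figure D5:**
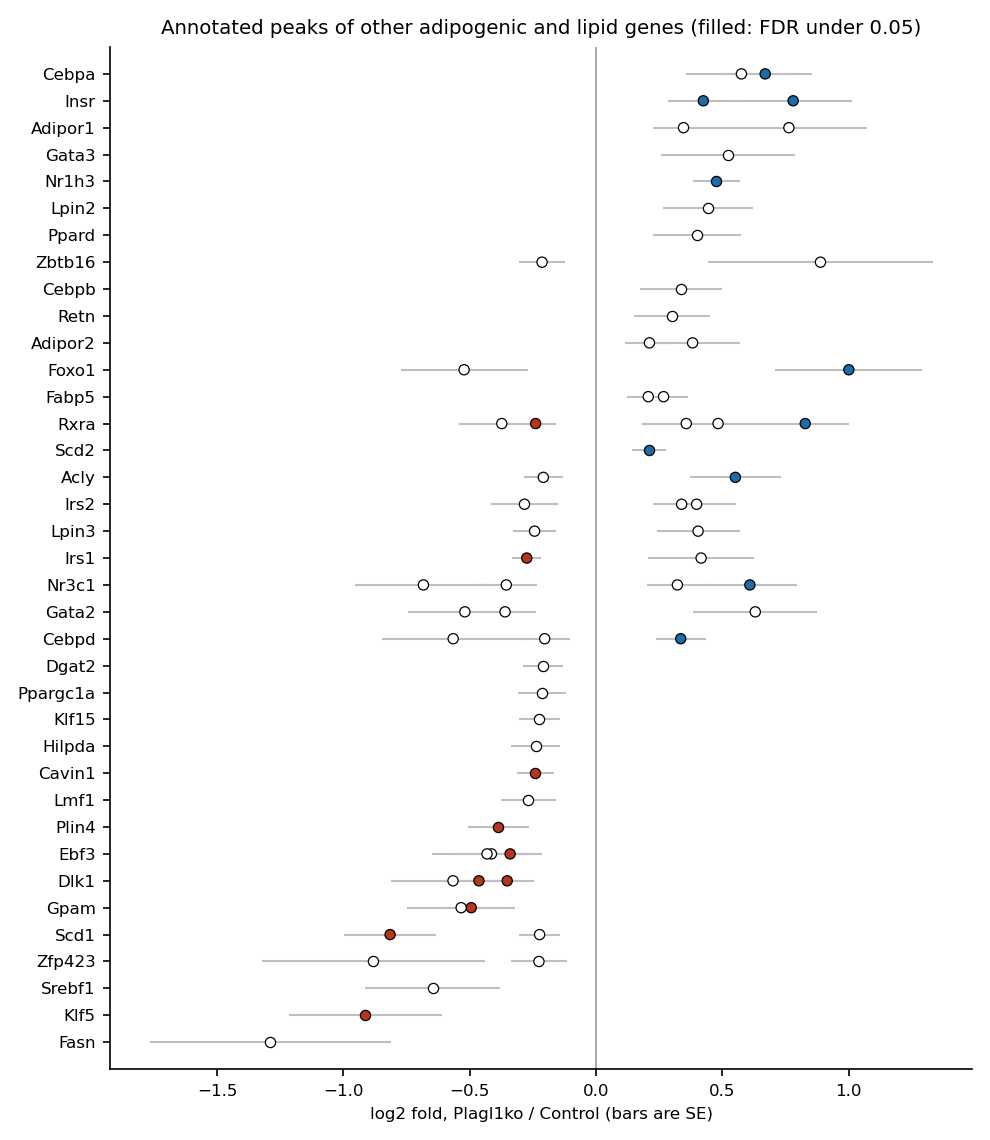
Log2 fold (Plagl1ko over Control, horizontal axis, bars are the standard error) of all 67 annotated peaks of 37 other adipogenic and lipid genes, 1 line per gene, ordered by the gene's mean. Filled points have an FDR under 0.05, with 10 at positive and 10 at negative folds, and open points do not. No point lies close to 0 because folds under 0.2 in size were not annotated.

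Markers of other cells that the cultures could hold were read the same way. Of 14 macrophage genes, 11 had an annotated peak, and 9 of them (81.8%) had a gained and 0 a lost peak in the authors' deposited table, with 16 gained peaks between 0.30 and 0.71. These included promoter or first intron peaks of Spi1, Csf1r, Adgre1, C1qb and Mrc1. Of 8 mature adipocyte genes, 3 (Adipoq, Plin4 and Retn) had an annotated peak, 0 gained and 1 lost (Plin4, from the authors' deposited table). Of 10 periosteal and mesenchymal progenitor genes, 9 had an annotated peak, and 26 of their 32 annotated peaks were negative, with 1 gene gained (Ctsk) and 4 lost in the authors' deposited table. Of 8 osteoblast genes, 4 had an annotated peak, 1 gained and 1 lost, and of 10 endothelial genes 6 had one, 2 gained and 3 lost in the authors' deposited table, with Kdr and Pecam1 counted in both. The osteoblast shares, 25.0% gained and 25.0% lost, are near those of all annotated genes. The endothelial shares were 33.3% gained and 50.0% lost, over 6 genes. Markers without an annotated peak may still be open, so the labelled cell type was not checked by these lists. A lower share of a cell type and less open chromatin per cell cannot be told apart in bulk libraries. The part of these cell types in the values of Lpl, Cd36, Nr1h3 or the Ebf genes was not tested.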

How the data were processed

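ATAC-seq was made from 2 Plagl1ko and 2 Control libraries. The submitters' processing notes name Bowtie2 2.5.4, DiffBind 3.16.0, SAMtools 1.21, Trim Galore 0.6.10, GATK 4.5.5.0, HOMER and deepTools 3.5.5 in no stated role, and mm39 as the build. How peaks were called, reads shifted and libraries normalized is not given in the sources used here. The log2 fold and mean log2 CPM of each of 85925 consensus peaks were computed by the authors and used as deposited. Each F score, p-value and FDR comes from the authors' edgeR comparison, per the file headers. The deposited annotation covers 15221 peaks, namely all that have an unadjusted p under 0.05 and a log2 fold of 0.2 or more in size. It leaves out 1834 peaks with p under 0.05, and 0 columns were set aside.

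CPM was computed as the antilog of the deposited log2 value. The standard error is the size of the log2 fold divided by the square root of F, and 95% intervals as 1.96 standard errors on either side. Across peaks its log2 had a slope of -0.52 on log2 CPM, near that of counting noise. A factor common to all peaks would leave that slope the same. It therefore cannot show how much of the spread between libraries the p-values hold, which may be little. Depth per library is unknown, and no interval is known to cover variation between animals. Start sites were solved from peak centres and the deposited distances. Distances and windows refer to peak centres. Peaks were called at a deposited FDR under 0.05, and that FDR matched a Benjamini-Hochberg adjustment over all peaks within 6.73e-06. Alternatives included subtracting a running median of the fold (2000 peaks, along signal), and assumed coefficients of variation of 0.05 and 0.1, each adjusted over all peaks with a normal test. The adjustment and the running median were run on simulated data with noise drawn from these same standard errors. No further spread between libraries was simulated. The start site check inverted its own formula and could not fail.

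The members and gene lists were chosen with earlier results of these data known. For each member the text gives the peak nearest to and within 1 kb of the start site, each peak that passed, that of smallest p and that of highest signal, and further peaks after their values were seen. Pathway genes are named where a peak passed, by that of smallest FDR. One called peak between 50 and 100 kb from a start site, assigned to another gene, is not reported here. The motifs CCAAT and AGGTCA were added after the other motifs were listed. Host genes and promoters came from RefSeq tables of GRCm38.p6, used for names, sequences and the strand of Adipoq and Cd36, and not for positions of peaks. The solved start sites and signed distances of Adipoq and Cd36 rest on that strand. Scripts ran in Python 3.11.15 with scipy 1.17.1, pandas 2.3.3, matplotlib 3.10.9 and numpy 2.4.6.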

Additional observations from a re-analysis of the deposited data

How the results depend on the processing

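The count of member peaks, 0 gained and 1 lost, rested on 1 weak Ebf1 peak. It was 0 lost at an FDR under 0.01, above the median signal, within 50 kb alone, and with an assumed coefficient of variation of 0.05 or of 0.1. At an FDR under 0.1 it was 1 gained and 3 lost, and within 100 kb plus annotated peaks 2 gained and 3 lost. With the running median subtracted 2 were lost, Ebf1 and Lpin1. The other settings, with a log2 fold of 0.5 or more in size, the 20 kb window plus annotated peaks, annotated peaks alone, and, added after seeing the data, peaks inside a member gene in place of assigned ones, gave 0 gained and 1 lost. The Pparg start site value of -0.03 turned to 0.0077 (adjusted p 0.983) with the running median subtracted, and the Adipoq value of -0.78 to 0.29 (FDR 0.434) with the strongest peak within 5 kb in place of the nearest. The median over the 75 peaks, -0.07, was 0.0125 within 20 kb alone. These changes follow from which peaks enter or from the subtraction. The Lpl and Lpin1 start site values stayed positive and did not pass with the running median subtracted; the other alternatives could not change their sign or make them pass. No paired analysis was possible because the tables hold no values per library, and for the same reason leaving out each library was not run. Member standard errors ran from 0.0694 at the strongest peak to 0.482 at the weakest. The part of depth in this was not tested.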

Other observations

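The wider surroundings of the genes held called peaks that the annotation assigned to neighbours. Those described here lay between 50 and 100 kb from the start sites and were chosen after their values were seen. A peak assigned to Rnf145, a ubiquitin ligase gene, at -78373 bp from Ebf1 (chromosome 11, 44431941 to 44433424, mm39, 46.4 CPM), was lost in Plagl1ko cells at a log2 fold of -0.21 (SE 0.0653, FDR 0.0319, from the authors' deposited table). The gained peaks had less signal. One assigned to St6gal1, a sialyltransferase gene, lay 71870 bp from Adipoq (chromosome 16, 23037004 to 23037308, 4.43 CPM) with a log2 fold of 0.92 (SE 0.208, FDR 0.00151, from the authors' deposited table). One assigned to Ppp2r2a, a phosphatase subunit gene, lay at -96732 bp from Ebf2 (chromosome 14, 67373862 to 67374157, 3.97 CPM) with 0.69 (SE 0.220, FDR 0.0364, from the authors' deposited table). Which gene any of these peaks acts on was not tested.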
